A study of Mus musculus with 3 samples.

Results

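A set of 760 regions of the mouse genome carried trimethylated lysine 4 of histone H3 (H3K4me3) in granulosa cells before the ovulatory hormone and 4 h after it, and had no peak of the mark at 12 h. The regions were chosen by the presence or absence of called peaks. That meant pooling the 3 deposited peak lists over the autosomes and X, joining peaks that lay within 1 kb of each other into domains, and keeping domains with a 0 h peak and a 4 h peak and without a 12 h peak. They were 760 of 14778 domains (5.14%). Of the 11582 domains with a peak at both earlier times they were 6.56%, a share that the rule itself fixed and that is given as a description. They are called lost domains below, a name for the absence of a called peak and not for a measured loss of signal, and the 10822 domains with a peak in every list are called kept domains.

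The cells came from wild type C57BL/6 females at post natal day 21-28. All mice received 4 IU of eCG, a gonadotropin that makes follicles grow, and the later groups also received 5 IU of hCG, which acts on the LH receptor and starts ovulation and luteinization. Ovaries were taken before hCG (0 h), 4 h after it and 12 h after it, and granulosa cells were released by puncturing the follicles. There was 1 H3K4me3 library per time, so no difference below has a replicate check or a test, and the number of mice in a pool is not stated in the material used. Fewer cells with the mark and less of the mark per cell cannot be told apart in such bulk libraries.

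H3K4me3 is laid down by the SET1 and MLL methyltransferases around the start sites of active and poised genes, and it is strongest at promoters rich in CpG dinucleotides. Granulosa cells of a growing follicle divide, make estradiol and secrete inhibin. After the LH surge they leave the cell cycle, change their matrix and turn into progesterone-producing luteal cells, and many promoters are remodelled on the way.

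Promoters of 5 genes at lost domains are shown so that the sequence at or near the mark can be read beside its width. They are 300 bases of RefSeq (GRCm38.p6), 250 before an annotated start and 50 after it, and capitals mark CpG dinucleotides. Where a gene had several annotated starts, the start nearest the lost domain was taken. For Inha that start (75507609) lies inside the annotated gene, which begins at 75507077. Inha (chr1:75507359-75507658, plus strand) and Grem1 (chr2:113758599-113758898, minus strand) are granulosa genes with a lost domain over or just after the start. Polq (chr16:37011536-37011835, plus strand) and H3c10 (chr13:21717378-21717677, plus strand) had a lost domain that spanned the start, with peaks on either side and none across it. Apoa4 (chr9:46240594-46240893, plus strand) had the most covered bp of all lost domains at 0 h. Of the 5 genes only Inha had a peak across the start, at 4 h. At Apoa4 the first peak of the domain began 529 bp after the start, and at H3c10 no peak reached the bases shown.
Inha: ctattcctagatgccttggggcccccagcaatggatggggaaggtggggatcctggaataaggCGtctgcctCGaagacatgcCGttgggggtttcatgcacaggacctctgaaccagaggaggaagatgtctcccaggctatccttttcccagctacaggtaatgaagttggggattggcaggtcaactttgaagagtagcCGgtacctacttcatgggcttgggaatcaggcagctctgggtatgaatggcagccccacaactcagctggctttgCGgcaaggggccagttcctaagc
Grem1: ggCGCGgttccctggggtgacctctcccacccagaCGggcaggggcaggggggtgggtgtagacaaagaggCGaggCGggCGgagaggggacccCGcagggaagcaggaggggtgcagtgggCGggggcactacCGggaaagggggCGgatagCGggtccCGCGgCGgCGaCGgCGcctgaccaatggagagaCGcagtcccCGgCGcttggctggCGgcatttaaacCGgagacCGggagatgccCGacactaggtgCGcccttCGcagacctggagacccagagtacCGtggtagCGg
Polq: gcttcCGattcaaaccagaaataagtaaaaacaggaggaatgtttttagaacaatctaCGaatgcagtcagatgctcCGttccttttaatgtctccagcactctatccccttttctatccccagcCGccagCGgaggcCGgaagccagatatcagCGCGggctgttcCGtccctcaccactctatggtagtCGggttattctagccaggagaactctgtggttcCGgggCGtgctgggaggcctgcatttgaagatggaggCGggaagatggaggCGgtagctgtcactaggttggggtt
H3c10: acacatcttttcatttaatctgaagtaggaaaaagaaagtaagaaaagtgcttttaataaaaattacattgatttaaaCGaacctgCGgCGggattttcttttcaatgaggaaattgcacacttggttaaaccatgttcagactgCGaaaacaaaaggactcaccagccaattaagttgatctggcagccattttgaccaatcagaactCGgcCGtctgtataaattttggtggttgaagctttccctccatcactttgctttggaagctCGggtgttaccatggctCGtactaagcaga
Apoa4: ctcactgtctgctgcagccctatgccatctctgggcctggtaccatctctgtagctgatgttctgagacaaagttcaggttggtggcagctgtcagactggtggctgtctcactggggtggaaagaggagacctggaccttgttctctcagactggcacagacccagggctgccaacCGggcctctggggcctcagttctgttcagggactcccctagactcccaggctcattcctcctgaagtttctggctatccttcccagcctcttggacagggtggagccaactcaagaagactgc

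The 5 sequences differ widely in CpG content. Grem1 holds 28 CpG dinucleotides with an observed to expected ratio of 0.79, Polq 14 with a ratio of 0.68, and H3c10 8 with a ratio of 0.69. Inha holds 5 with a ratio of 0.22, and Apoa4 a single one, with a ratio of 0.04. H3c10, a replication-dependent H3 gene, is the only one of the 5 with TATAAA, and it has CCAAT 2 times.

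The libraries bear on how these absences can be read. Over the autosomes and X, 22208, 23619 and 20644 peaks were listed for 0 h, 4 h and 12 h, with 8.87, 10.1 and 8.92 Mb under them. Sequencing depth is unknown. The narrowest peak was 136, 139 and 152 bp wide, and the 25th percentile of width was 182, 187 and 211 bp, so the 12 h list was the shortest and began at a greater width. The 12 h library was also run in lane 5 and the others in lane 4, so lane and time cannot be told apart. The cell type label was checked by peaks at marker genes. Of 16 granulosa markers 9, 9 and 10 had a peak at a gene end at 0 h, 4 h and 12 h, of 10 leukocyte markers none did at any time, and of 11 endothelial markers 1, 2 and 1 did. Of 7 theca markers 2 had a peak at each time, of 9 stromal markers 0, 1 and 0, of 10 oocyte markers 1, 1 and 2, of 7 surface epithelium markers 2, 1 and 2, and of 5 erythroid markers 0, 1 and 1.

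Lost domains were narrow. Their median span was 481 bp (quartiles 308 and 740, largest 2214), against 1236 bp for kept domains. The bp covered by peaks had a median of 261 at 0 h (quartiles 163 and 394) and 263 at 4 h (172 and 376), against 759 and 828 bp in kept domains. A single peak in each of the lists made up 472 lost domains (62.1%), against 25.5% of kept domains. The other patterns that lacked a single list were much the same. Domains that lacked only the 0 h peak had a median span of 541 bp, with single peaks in 62.6%. Their median cover was 294 bp at 4 h and 288 bp at 12 h. Domains that lacked only the 4 h peak had a median span of 480 bp, with single peaks in 72.3%. Their median cover was 247 bp at 0 h and 255.5 bp at 12 h. The 0 h and 4 h peaks overlapped each other in 643 lost domains (84.6%) and lay apart within 1 kb steps in the other 117, against an overlap in 97.9% of kept domains. The widest peak of a lost domain had a median of 286.5 bp. In 41 lost domains it was below the narrowest 12 h peak, and in 196 (25.8%, against 2.51% of kept domains) below the 25th percentile of 12 h widths. The part of this width floor in the result was not tested on reads. With the same number of the widest peaks taken from each list, 568 of the 760 domains (74.7%) met the rule. With peaks under the 25th percentile of their own list left out, the rule chose 778 domains, and 332 of the 760 (43.7%) overlapped them.

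The share of domains without a 12 h peak fell steeply with width at 4 h. It was 41.3% (260 of 629, 95% interval 37.5 to 45.3) under 200 bp, 30.3% (200 of 661, 26.8 to 33.9) from 200 to 300 bp and 13.4% (211 of 1576, 11.7 to 15.2) from 300 to 500 bp. From 500 to 1000 bp it was 1.69% (83 of 4904, 1.35 to 2.09), and from 1000 to 2000 bp 0.16% (6 of 3708, 0.059 to 0.35). Of 104 wider domains 0 lacked a 12 h peak, which allows a share of up to 3.49%. Of 7581 domains whose peaks covered 500 bp or more in total at each earlier time, 27 (0.356%) had no 12 h peak. Intervals here and below cover counting error alone.

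Peaks were also missing from the other lists, which puts these shares in scale. Domains with a 4 h and a 12 h peak lacked a 0 h peak in 5.58% of cases (639 of 11461), and those with a 0 h and a 12 h peak lacked a 4 h peak in 2.19% (242 of 11064). By bins of 4 h width the share without a 0 h peak was 33.5% under 200 bp. It was 23.7% from 200 to 300 bp and 11% from 300 to 500 bp. These are below the shares without a 12 h peak in the same bins. From 500 to 1000 bp (2.25%) and from 1000 to 2000 bp (0.78%) the order was turned, so the wider domains more often lacked a 0 h peak than a 12 h peak. The comparisons share the 4 h library and are set side by side without a test.

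**Figure D1:**
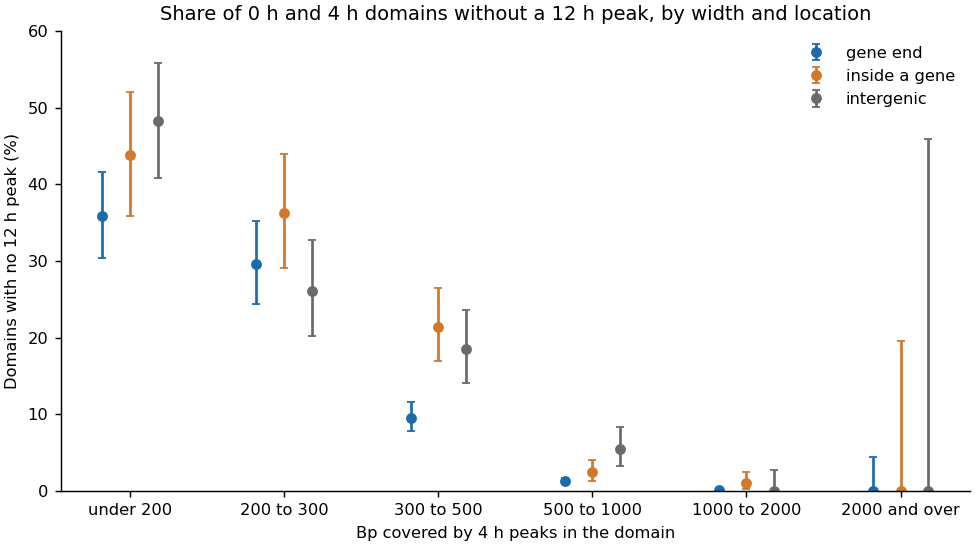
Share of domains with a 0 h and a 4 h peak that had no 12 h peak (y axis, percent), in bins of the bp covered at 4 h (x axis), for domains at a gene end (blue), inside a gene (orange) and intergenic (grey). Points are shares and bars are 95% Clopper-Pearson intervals. Shares fell from 35.8%, 43.9% and 48.3% under 200 bp to 1.28%, 2.41% and 5.39% from 500 to 1000 bp.

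Location set lost domains apart from kept ones. Within 1 kb of either end of a protein-coding gene lay 339 lost domains (44.6%, 41.0 to 48.2), 213 (28.0%) lay elsewhere inside a gene and 208 (27.4%) were intergenic. Of kept domains 78.2%, 13.2% and 8.52% fell in these classes. Domains that lacked only the 0 h peak were spread like the lost ones, with 44.8%, 25.8% and 29.4%, and so were those that lacked only the 4 h peak, with 46.7%, 25.2% and 28.1%. The share without a 12 h peak was 3.85% at gene ends, 12.9% inside genes and 18.4% between genes. Outside chromosome 18, whose promoters were not used, it was 3.72% (295 of 7936) at domains with an annotated coding start within 1 kb. It was 10% (37 of 370) at those with a lncRNA start alone and 13.8% (407 of 2944) at those with no annotated start. Part of this went with width. Within the bin of 300 to 500 bp the shares were 9.54% (7.79 to 11.5) at gene ends, 21.4% (16.9 to 26.4) inside genes and 18.5% (14.1 to 23.6) between genes, so gene ends were lower in that bin. From 200 to 300 bp the order was not the same, with 29.6% (24.4 to 35.3) at gene ends, 36.3% (29.1 to 43.9) inside genes and 26.1% (20.2 to 32.7) between genes, and these intervals overlapped.

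**Figure D2:**
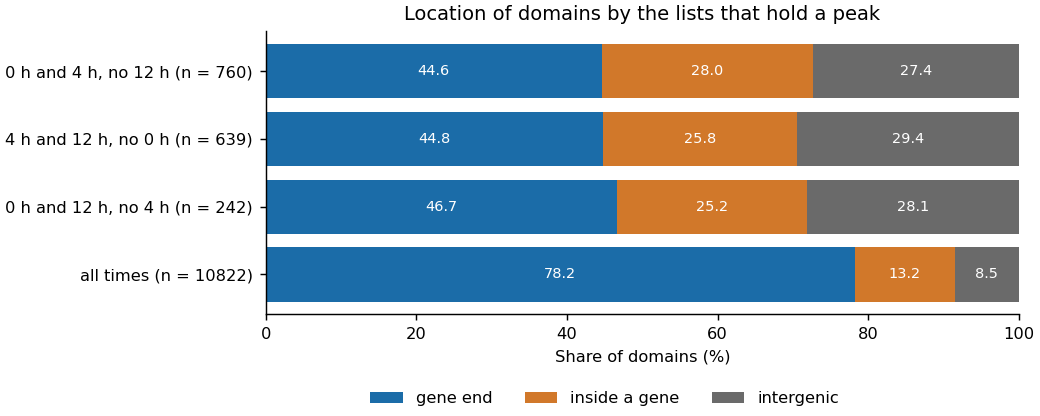
Location of domains (x axis, percent of domains) for each pattern of lists with a peak (rows, with the number of domains). Blue is within 1 kb of a coding gene end, orange inside a gene, grey intergenic. The 3 patterns that lack a single list have 44.6% to 46.7% at gene ends, and domains present at all times have 78.2%.

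Around start sites, lost domains sat mainly downstream, where the mark lies on the nucleosomes after the start. Of the 295 lost domains with an annotated coding start within 1 kb, 59.3% lay wholly downstream of it, 31.5% spanned it and 9.15% (6.12 to 13) lay wholly upstream. Kept domains under 500 bp at 4 h, which are closer in width, had 59.0%, 37.8% and 3.2% (2.27 to 4.36). Domains that lacked only the 0 h peak had 61.5%, 30.6% and 7.94% (4.92 to 12.0) in the same order, and the upstream intervals of the 2 sets overlapped. The 0 h peaks of lost domains were most frequent 350 bp after the start, where 43.1% of the domains were covered against 41.4% at 150 bp, and the 4 h peaks 150 bp after it, where 50.5% were. In the narrow kept domains the most frequent position was 150 bp at every time, with 62.7%, 60.9% and 64.3%, and in all kept domains it was 350 bp at every time.

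**Figure D3:**
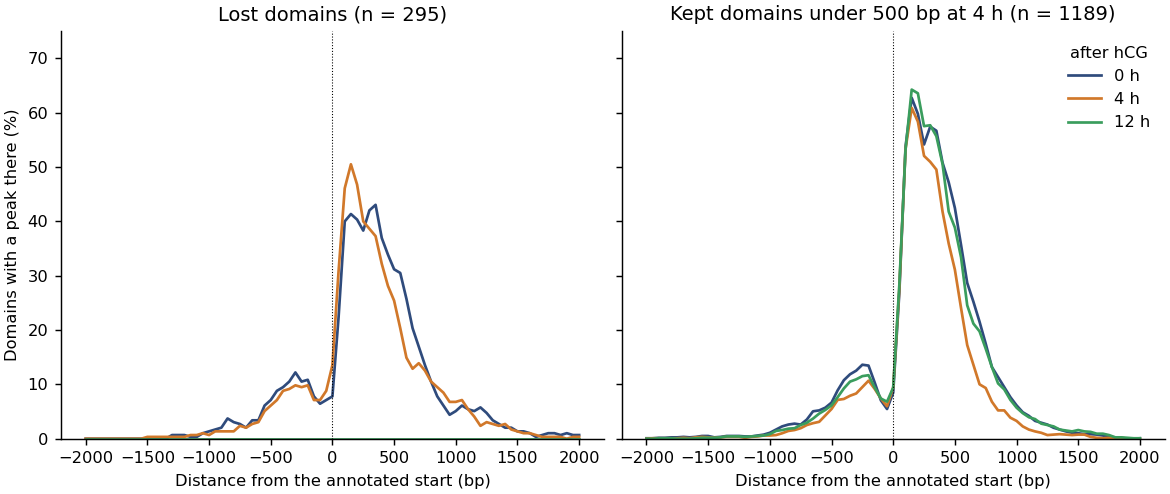
Share of domains with a peak at each distance from the annotated start along the gene (x axis, bp; y axis, percent), at 0 h, 4 h and 12 h. Left, the 295 lost domains with a coding start within 1 kb, where the 12 h line lies at 0 by the rule; right, 1189 kept domains under 500 bp at 4 h. Both sets peak downstream of the start, at 50.5% for the 4 h peaks of lost domains.

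Promoters under lost domains were less rich in CpG than those under kept ones. For the 96 annotated starts inside lost domains the median promoter had 59.2% GC and 17 CpG dinucleotides, with an observed to expected ratio of 0.65. Starts inside kept domains (4735) had 63.3%, 25 and 0.85, those inside kept domains under 500 bp (471) had 61.7%, 20 and 0.74, and starts with no domain (9809) had 49.7%, 4 and 0.23. Lost domains thus lay between the narrow kept domains and unmarked starts. Starts inside domains that lacked only the 0 h peak (79) had 65.0%, 21 and 0.70. A ratio below that of narrow kept domains was therefore not particular to lost domains. The letters of 8 known motifs were searched on both strands, none of which contains another. The shares below follow the order lost domains, narrow kept domains and all promoters of the table, which also holds starts of noncoding genes. GGGCGG, the Sp1 GC box, was in 63.5% of the promoters at lost domains, 65.2% of those at narrow kept domains and 35.9% of all 32619 promoters of the table, against 46.7% of the 21045 coding ones. CCAAT was in 42.7%, 39.5% and 37.6%, TATAAA in 4.17%, 5.31% and 13.7%, and CACGTG, the E box, in 11.5%, 9.34% and 7.20%. TGTGGT, the RUNX motif, was in 10.4%, 11.3% and 16.6%, and TGANTCA, the AP-1 motif, in 4.17%, 3.18% and 7.85%. AAGGTCA, read by SF-1 and LRH-1, was in 5.21%, 2.34% and 4.71%, and the cAMP response element TGACGTCA in 1.04%, 3.61% and 1.8%. At 96 promoters the last share is a single match, and a match is a description of letters only.

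At the genes, 381 of 10131 protein-coding genes with a 0 h and 4 h domain at an end had a lost domain there (3.76%). For 246 of them an annotated start of the gene lay within 1 kb of the lost domain, and for 52 none did. For 83 the gene had no start in the promoter table. In 347 no kept domain lay at either end, and in 270 no 12 h peak lay in the gene or within 5 kb of it. Over 12 gene lists and 8 lists of cell type markers, 5 of 202 distinct genes with such a domain had a lost one (2.48%). They were Inha, Grem1, Igf2r, Flt4 and Fosb.

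Genes of follicular growth held 3 of the 5, out of 22 with a 0 h and 4 h domain (13.6%, against 3.76% of all genes). With so few genes this is given only as a count. Inha encodes the alpha subunit of inhibin, the granulosa hormone that restrains FSH. Its domain (chr1:75507532-75509059) covered 780, 658 and 0 bp at 0 h, 4 h and 12 h. The domain lay over an annotated start at 75507609, inside the gene, and not over the first base of the gene at 75507077. At 0 h the domain was 3 peaks after that inner start, and at 4 h a single peak that crossed it. The nearest 12 h peak was 12763 bp away. Grem1 encodes a secreted BMP antagonist of growing follicles. Its domain (chr2:113756815-113758617, beginning 31 bp after the start) covered 1585, 166 and 0 bp, with no 12 h peak within 88674 bp. The log2 ratio from 0 h to 4 h was -3.26, the lowest of all lost domains, so most of its covered length was gone before the last interval. Igf2r encodes the imprinted receptor that clears IGF2 from the cell surface. Its domain (chr17:12768658-12769351, after the start) covered 379, 395 and 0 bp, and 2 other 12 h peaks lay in the gene or within 5 kb.

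The remaining lists held few or none. Flt4, the receptor of VEGF-C on lymphatic endothelium, was 1 of 15 angiogenic genes, with 284, 205 and 0 bp just upstream of its start (chr11:49609178-49609525) and the nearest 12 h peak 102679 bp away. Fosb, an AP-1 subunit gene induced at once by many stimuli, was 1 of 30 immediate early genes. Its lost domain covered 433, 214 and 0 bp beyond the 3′ end of the gene (chr7:19300849-19301847), and the domain at its other end was kept. None of 18 LH-response genes, 13 steroidogenesis genes, 26 cholesterol genes, 27 cell cycle genes, 17 matrix genes, 8 cytokine genes, 18 housekeeping genes and 16 H3K4 methylation enzyme genes had a lost domain, and 0 genes of unrelated lineages had a domain to lose. These zeros moved with the processing, and with so few genes a list they are read against the 3.76% of all genes only as counts. With peaks joined only where they touch, the LH-response, cholesterol and cell cycle lists had 3 each, the matrix, housekeeping and H3K4 enzyme lists 2 each, and the steroidogenesis and cytokine lists 1 each. Joining within 500 bp gave 1 LH-response gene and 1 H3K4 enzyme gene. Leaving out narrow peaks gave 2 matrix genes and 1 gene each in the steroidogenesis, cholesterol, housekeeping and H3K4 enzyme lists.

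**Figure D4:**
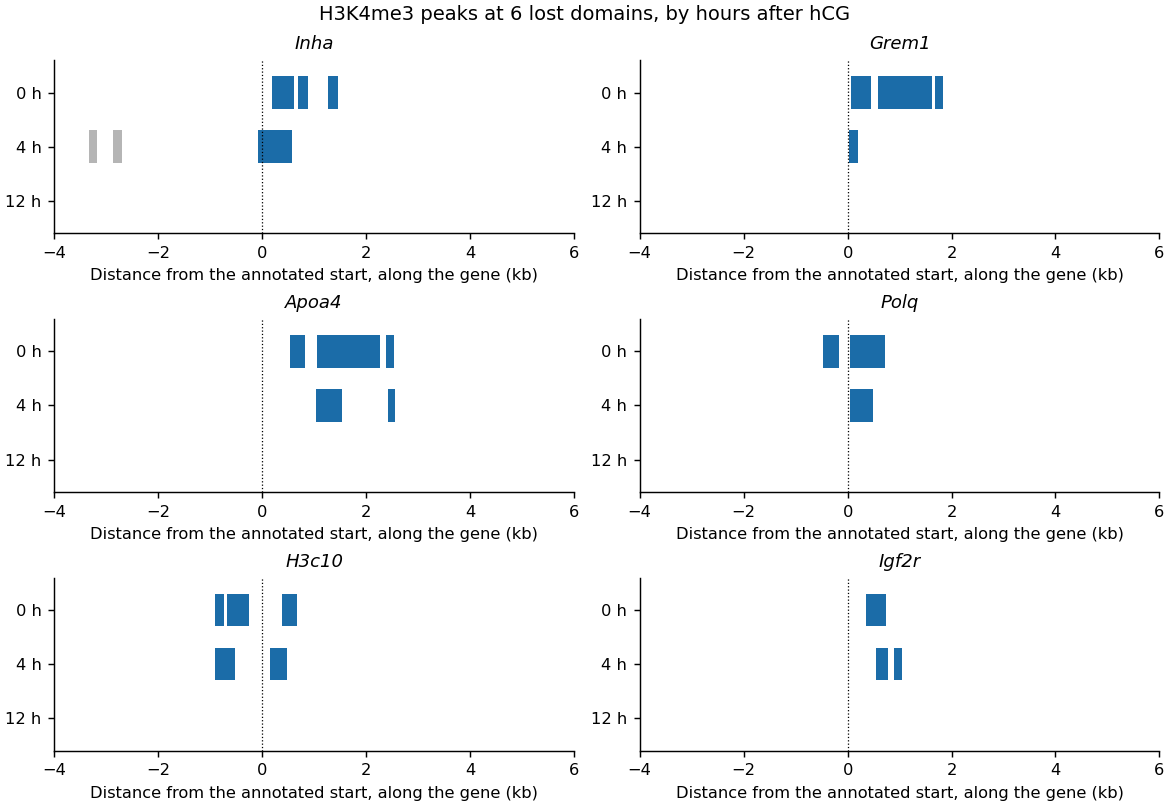
Peaks (bars) at 6 genes by hours after hCG (rows). The x axis is the distance along the gene (kb) from the annotated start nearest the lost domain. Blue bars belong to the lost domain and grey bars to another domain. At Inha the covered bp were 780, 658 and 0, at Grem1 1585, 166 and 0, at Apoa4 1684, 644 and 0, at Polq 983, 446 and 0, at H3c10 880, 705 and 0, and at Igf2r 379, 395 and 0. None of the 6 has a 12 h peak in the window.

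Among all genes with a lost domain at an end, those with the most covered bp were of varied function. Apoa4, an apolipoprotein gene, had a domain 529 bp after its start (chr9:46241373-46243398) with 1684, 644 and 0 bp. Rtkn2 had 343, 1579 and 0 bp (chr10:67979789-67981642). It had the most covered bp of all lost domains at 4 h, with a log2 ratio to 0 h of 2.2. Spin2c on the X chromosome, a gene of the spindlin family whose founding member binds H3K4me3, had 767, 1070 and 0 bp (chrX:153832299-153833586). Sorl1, a sorting receptor gene, had 480, 887 and 0 bp at its start and an additional intergenic lost domain 12993 bp from the gene with 455, 700 and 0 bp. Skida1 had 427, 924 and 0 bp. At these 4 genes the mark covered more at 4 h than at 0 h.

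Other genes near the top were covered alike at both earlier times. Supt3, a subunit gene of the SAGA coactivator, had 763, 818 and 0 bp. Cnmd, which encodes the matrix protein chondromodulin, had 688, 683 and 0 bp, and Mxd1, a MAX partner that opposes MYC, had 595, 719 and 0 bp. The start of Aunip, whose protein binds Aurora A kinase, had 679, 654 and 0 bp, in a domain that also lay by the far end of Paqr7, a membrane progestin receptor gene with a kept domain elsewhere. H60b, a ligand gene of the NKG2D receptor, had 794, 629 and 0 bp, and Nicn1 had 778, 563 and 0 bp. In this group the earlier times differed by at most 0.47 on the log2 scale, and the missing 12 h peak was set by the rule.

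A further group had already narrowed by 4 h. Polq, the gene of DNA polymerase theta in end joining, had 983, 446 and 0 bp in a domain that spanned its start (chr16:37011319-37012512), with no 12 h peak within 135343 bp. Rdm1, a RAD52-related gene, had 850, 146 and 0 bp. Nap1l2, an X-linked nucleosome assembly gene, had 729, 139 and 0 bp, and Nipsnap1, a mitochondrial protein gene with a kept domain at its other end, had 666, 143 and 0 bp. Itsn1, an endocytic scaffold gene, had 1052, 188 and 0 bp at its far end and likewise a kept domain elsewhere. The 4 h values of 139 to 188 bp are at or close to the narrowest peak of that list. The opposite change, from near the floor to a wide 4 h domain, was found at Tspan33, a tetraspanin gene with 136, 681 and 0 bp beyond its far end, Art3 with 141, 564 and 0 bp, and Sgcz, a sarcoglycan gene, with 184, 718 and 0 bp. The zinc finger gene Zfp948 had 248, 939 and 0 bp, from a 0 h value near the median of lost domains.

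Replication-dependent histone genes were a group chosen after the member genes had been seen. Of 46 with a 0 h and 4 h domain, 10 had a lost domain (21.7%, against 3.76% of all genes). The 10 shared 4 domains, all on chromosome 13, where 19 of the 24 histone domains with a peak at both earlier times lay. The domain of H2ac13, H2bc13 and H3c10 (chr13:21716715-21718296) covered 880, 705 and 0 bp. The one of H2ac7, H2ac8, H2bc7 and H2bc8 (chr13:23572049-23573922) covered 614, 245 and 0 bp, the one of H2ac15 and H2bc15 covered 434, 226 and 0 bp, and the one of H4c2 192, 184 and 0 bp. Of these 24 domains 4 lacked a 12 h peak (16.7%, 4.74 to 37.4). This interval includes the 6.56% of all domains. Its lower limit is above the 3.85% of domains at gene ends, where all 24 lay. As the group was picked from these same data, the shares are a description only. The 20 kept histone domains had medians of 904, 816 and 635.5 bp. The genes of a cluster share domains, so they are not independent, and their near-identical copies make the placing of reads uncertain.

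A tight neighbourhood on chromosome 19 had 2 lost domains with 1004, 730 and 0 bp between them, at Tmem179b, Tmem223, Taf6l and the mRNA export gene Nxf1. In all, 112 lost domains (14.7%) lay within 100 kb of another, in 52 runs of which 7 held 3 or more. No such share was computed for other domains, so these counts do not show that lost domains cluster. Within the same distance 76.8% of lost domains had a 12 h peak. The longest run, with 4, was near Pdia4 on chromosome 6, and runs of 3 included Rdm1 to Arl4d and Fosb to Ercc1. Gata6, a transcription factor gene of granulosa cells picked after its values were seen, had 2 lost domains and no 12 h peak within 295273 bp. One lay 1454 bp outside the gene with 647, 170 and 0 bp, and the other inside it with 703, 154 and 0 bp.

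Further genes with a lost domain at an end were picked by eye after their values were seen, while the cell cycle and replication list had 0 of 27. Gas6, a ligand of the TAM receptors, had 870, 211 and 0 bp at its start. Stc1, the stanniocalcin gene, had 503, 386 and 0 bp, Hsd11b2, which inactivates glucocorticoids, 419, 234 and 0 bp, and the hyaluronan synthase gene Has3 373, 145 and 0 bp. Notch3 had 341, 169 and 0 bp, the deiodinase gene Dio2 136, 196 and 0 bp, and the Wnt receptor gene Fzd6 278, 575 and 0 bp. The mitotic kinase gene Pbk had 716, 278 and 0 bp, the gene of polymerase epsilon subunit Pole2 307, 192 and 0 bp with 3 other 12 h peaks in or near the gene, and Tk1, the thymidine kinase gene, 281, 152 and 0 bp. The imprinted genes Snurf and Mkrn3 had 569, 403 and 0 bp and 410, 487 and 0 bp. These genes are examples and stand for no group.

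Away from gene ends, the lost domain with the most covered bp lay inside Arhgap28, a GTPase-activating protein gene, 2922 bp from the nearest annotated start, with 1617, 1014 and 0 bp (chr17:67953862-67955999). Fat1, an atypical cadherin gene, had 1266, 1075 and 0 bp in 6 peaks (chr8:44935358-44937262), but a 12 h peak lay 1217 bp away, barely beyond the joining distance. Inside Dnajb14, a cochaperone gene, the values were 1220, 531 and 0 bp. In Etl4 they were 967, 658 and 0 bp, with an annotated start of Etl4 216 bp away, and in Serpinb1a, a protease inhibitor gene, 556, 1016 and 0 bp. Neu3, a sialidase gene, and Mad2l2, which acts in mitosis and DNA repair, had lost domains of 6 peaks each inside the gene, with 1001, 340 and 0 bp and 525, 630 and 0 bp. The Mad2l2 domain held an annotated inner start of that gene. A separate lost domain with 228, 572 and 0 bp (chr4:148130898-148131722) held another annotated start of Mad2l2. Between genes, the domain with the most covered bp was 11595 bp from Utf1, a stem cell chromatin factor gene, with 1215, 414 and 0 bp (chr7:139956707-139957980). The one near Coa7 had 1123, 154 and 0 bp. The one near Psmg4 had 824, 406 and 0 bp with 0 h and 4 h peaks that did not overlap, and the one near Rnf19a had 313, 844 and 0 bp beside the start of a gene model. These intergenic domains carry the name of the nearest gene only as an address.

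From 0 h to 4 h the lost domains as a whole showed no common direction. The median log2 ratio of covered bp was 0.02, with 392 domains wider, 360 narrower and 8 equal, against a median of 0.11 in kept domains. The rule used presence and not width at these times, but a domain must be wide enough to be called at both, so the ratio depends on the width at 0 h. At under 200 bp the median was 0.50 for lost and 0.99 for kept domains. At 200 to 300 bp it was 0.02 and 0.40, and at 300 to 500 bp -0.35 and 0.28. At 500 to 1000 bp it was -0.90 over 86 lost domains, of which 84.9% were narrower at 4 h, and 0.10 over 5283 kept ones, of which 39.3% were. All 11 lost domains of 1000 to 2000 bp were narrower at 4 h, with a median of -1.56 against 0.01. In every bin with lost domains they were therefore lower than kept domains of like width at 0 h, and the gap was larger from 300 bp on than below. Width at 4 h and a missing 12 h peak went together over all domains, as given above, so the gap is a description without a test.

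**Figure D5:**
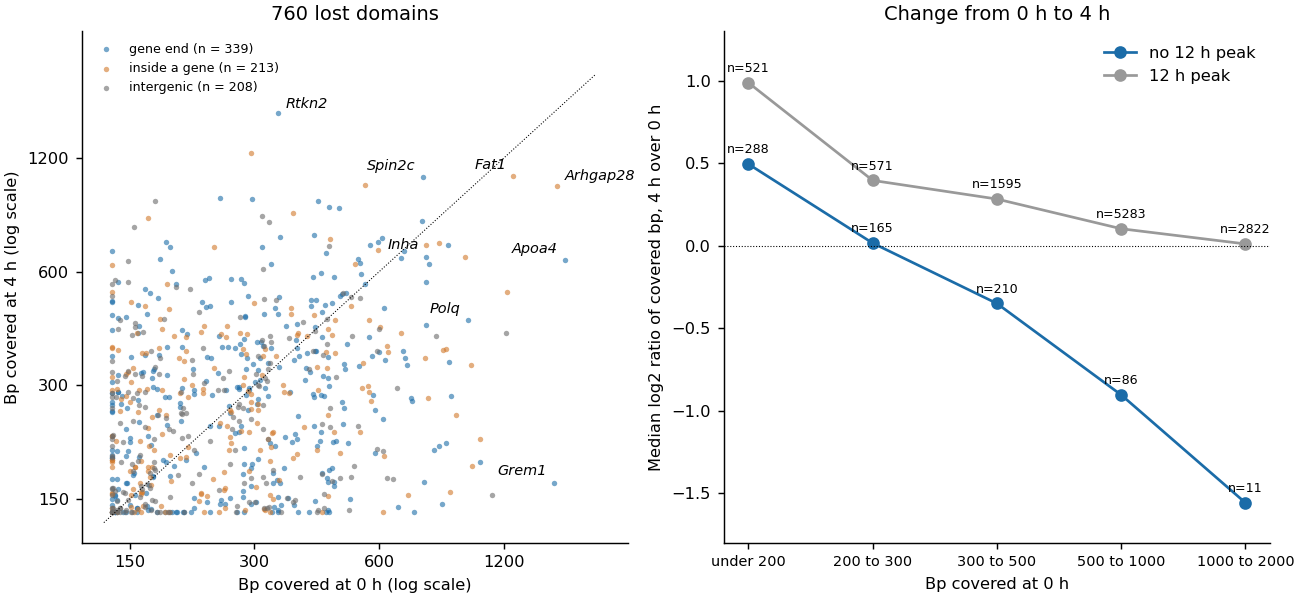
Left, bp covered at 0 h (x axis) and at 4 h (y axis), both on log scales, for each of the 760 lost domains, coloured by location; the dotted line marks equal cover. Right, median log2 ratio of covered bp (4 h over 0 h) in bins of the bp covered at 0 h for domains without a 12 h peak (blue) and with one (grey), with the number of domains. Blue falls from 0.50 to -1.56 and grey from 0.99 to 0.01.

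The nearest 12 h peak lay at a median of 36860 bp from a lost domain (quartiles 14020 and 92480). It was within 2 kb for 17 and within 5 kb for 71 (9.34%), and within 100 kb for 76.8%. Just inside the rule, the 12 h peak was 1029 bp from the domain at Rbm15 (261, 264 and 0 bp), 1067 bp at Phip (892, 157 and 0 bp) and 1125 bp at Bcorl1 (383, 414 and 0 bp). Just outside it, the kept domain at Bmp6 had a 12 h peak 923 bp from its other peaks (274, 494 and 152 bp), at Vgll3 880 bp (162, 241 and 183 bp) and at Sirt4 790 bp (225, 393 and 152 bp). These names are those of the nearest genes, and a separate domain that held an annotated start of Sirt4 was lost. In 95 kept domains (0.878%) no 12 h peak overlapped an earlier one. The joining distance bore on the lost domains far more, since joining peaks only where they touch gave 2084 of them.

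By chromosome, lost domains made up 10.9% of X domains with a 0 h and 4 h peak (43 of 396, 7.97 to 14.4), against 6.41% on autosomes (717 of 11186, 5.96 to 6.88). Chromosome 10 had the highest autosomal share, 9.39% (7.15 to 12.0). At gene ends the share was 7.90% on X (5.08 to 11.6) and 3.71% on autosomes. Under 300 bp at 4 h it was 43.1% (30.9 to 56.0) and 35.3% (32.6 to 38.0), and from 300 to 500 bp 13.2% and 13.4%, so within widths the intervals overlapped. X also had higher shares of domains without a 0 h peak (6.37% against 5.55%) and without a 4 h peak (3.29% against 2.15%), and those intervals overlapped too. Genes on X with a lost domain included Spin2c and Nap1l2.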

How the data were processed

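H3K4me3 ChIP libraries of mouse granulosa cells at 3 times were amplified for 18 PCR cycles, per the labels' protocols. The authors deposited 1 peak list per sample with positions in bp, without heights, scores or depth. Per the submitters' processing notes the tools were CASAVA 1.8, Bowtie2 2.2.3 and MACS2 2.0.9 and the build mm10. The threshold for a peak and the use of the input are not given in the sources used. The file contents show a nolambda tag in every peak name at 0 h and 4 h and in no peak name at 12 h, although the name of that list has it. Whether its calling differed is unknown. Lane 5 held the 12 h library and lane 4 the others, per the labels.

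Peaks on chromosomes 1 to 19 and X were joined within 1 kb into domains and covered bp summed per list (Python 3.11.15, pandas 2.3.3, NumPy 2.4.6, SciPy 1.17.1, matplotlib 3.10.9). The joining and pattern calls recovered the known answers on simulated domains set far apart. Gaps near the 1 kb limit were not tried there. Gene ends came from 21631 RefSeq coding genes without strand. Starts came from a RefSeq promoter table (GRCm38.p6) with 17274 of them, and chromosome 18 promoters were not used here. The 95% intervals are Clopper-Pearson and reflect counting error only.

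The domains, the 12 gene lists and the 8 marker lists were chosen with earlier results of these data known. Genes are named by a rule. It takes the 20 genes with the most covered bp at a gene end, every list gene, the 5 widest domains inside genes and the 5 widest between genes, the 5 highest and 5 lowest log2 ratios among gene-end domains of at least 300 bp at either earlier time, and the 5 domains of the most peaks. Other genes are marked as picked after their values were seen, apart from neighbours that name a shared domain, a run or the joining limit. Alternatives changed the joining distance, the peaks used, the gene end window, the genes and the bins.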

Additional observations from a re-analysis of the deposited data

Results flagged for a closer look

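Peaks on chromosome Y were present in lists from female mice and were used in no comparison. There were 28 at 0 h, 43 at 4 h and 25 at 12 h. Joined in the same way, 16 chromosome Y domains had a 0 h and a 4 h peak, and 5 of them had no 12 h peak. Reads, mapping quality and control samples were not analysed here, and what the peaks stand for was not tested.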

How the results depend on the processing

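No paired analysis was possible because each time had 1 library, so leaving out a replicate was not run either. Of 81 alternative values of the main results 51 moved by less than their interval or, for counts, 1.5 times, and 30 moved more. Requiring overlap of the 0 h and 4 h peaks and using only annotated starts were added after seeing the data.

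Joining peaks only where they touch gave 2084 domains, 13.5% of those with both earlier peaks, since neighbouring 12 h peaks no longer counted. Their median cover was 193 bp at 0 h and 210 bp at 4 h, 59.0% lay at gene ends and 14.4% between genes, and 1431 genes and 27 list genes were involved. Joining within 500 bp gave 7.19% and 8 list genes, against 5. With narrow peaks left out the share was 7.56%, the medians 328 and 339 bp, the list genes 9, and gene ends and intergenic domains 53.9% and 19.3%. Taking as many of the widest peaks from each list gave a share of 5.11% and a 4 h median of 282.5 bp, and requiring overlap gave 5.72% and 282 bp. A gene end window of 500 bp put 37.8% at gene ends and 33.8% inside genes, and one of 2.5 kb 50.4% and 23.6%. With all annotated genes 56.1% lay at gene ends and 15.4% between genes. In bins of 0 h cover the share was 35.6% under 200 bp and 22.4% from 200 to 300 bp. It was 11.6% from 300 to 500 bp and 0.388% from 1000 to 2000 bp. Where the construction does not show the cause, the cause was not tested.

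Among named genes, Fosb was not called with peaks joined only where they touch or within 500 bp, with narrow peaks left out or with equal numbers. Cnmd was not called with peaks joined only where they touch, and Flt4, Grem1 and Rtkn2 were not called with narrow peaks left out. Depth is unknown, so absence at 12 h means no called peak.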
